A study of Rattus norvegicus with 6 samples.

Results

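Cell cycle genes were examined in the thoracic aorta of rats of the strain SHR, which is inbred for spontaneous hypertension, and of its normotensive control strain WKY (Wistar-Kyoto). The genes were a list of 42 named regulators, enzymes and markers of cell division, and were taken from the arrays wherever the platform annotation gave a probe set that single gene. This found 39 of the 42, on 43 probe sets, among 18166 genes named in this way on the array. Rrm1, Birc5 and Ccnd3 had no such probe set. Both strains were 24 weeks old and received no treatment beyond the measurement of tail blood pressure, and their aortae had been cleaned of attached fat and connective tissue. There were 3 SHR and 3 WKY arrays (Affymetrix Rat Gene 2.0 ST). The sources used here do not state the sex of the rats or whether each array held a different animal, so p-values reflect the spread among these 6 arrays only, and that spread may be technical.

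A cell that divides passes from G1, where D-type cyclins with Cdk4 and Cdk6 release the E2F transcription factors from the retinoblastoma protein, into S phase, where replication enzymes copy the DNA, and then through G2 into mitosis, which is driven by Cdk1 with the A- and B-type cyclins. Inhibitors of the Ip/Kip family (Cdkn1a, Cdkn1b) and the INK4 family (Cdkn2a, Cdkn2b, Cdkn2c) restrain the kinases. Many replication genes are E2F targets, and many mitotic genes carry a cell cycle homology region and CCAAT boxes that are read by the DREAM complex, FOXM1 with B-MYB, and NF-Y. In the adult artery most smooth muscle cells rest outside the cycle, and they can re-enter it after injury or under growth stimuli.

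Promoters are shown for the G1, DNA synthesis and G2 and mitosis genes whose SHR and WKY arrays did not overlap on at least 1 probe set and for which the RefSeq promoter table of assembly GRCr8 held an entry with a searched motif. Those of CDK inhibitors are not printed. That reference is of the BN rat, not of either strain. The table matched 31 of the 42 listed genes. It held no entry for Rrm2, Ccnd1, Tpx2 and Ccna2, whose strains also did not overlap. Ccnb2 and Mcm3 are shown for their dimmer probe sets, and their brighter ones overlapped. Each line runs 5′ to 3′ from 250 bases before the annotated start to 25 after it. Capitals mark the cell cycle homology region (TTTGAA or TTCGAA), the CCAAT box (CCAAT, or ATTGG on the other strand) and the E2F site (TTTCGCGC, TTTGGCGC, TTTCCCGC or TTTGCCGC, or their reverse complements). The first is that of the antigen Ki-67, the usual marker of dividing cells.
Mki67 promoter (GRCr8 chr1:199952569-199952843, minus strand): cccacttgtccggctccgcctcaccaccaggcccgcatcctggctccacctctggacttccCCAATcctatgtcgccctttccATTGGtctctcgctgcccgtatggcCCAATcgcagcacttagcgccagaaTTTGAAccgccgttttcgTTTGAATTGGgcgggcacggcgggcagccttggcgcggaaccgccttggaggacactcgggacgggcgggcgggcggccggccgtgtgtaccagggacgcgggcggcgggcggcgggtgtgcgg
Prc1 promoter (GRCr8 chr1:143659231-143659505, plus strand): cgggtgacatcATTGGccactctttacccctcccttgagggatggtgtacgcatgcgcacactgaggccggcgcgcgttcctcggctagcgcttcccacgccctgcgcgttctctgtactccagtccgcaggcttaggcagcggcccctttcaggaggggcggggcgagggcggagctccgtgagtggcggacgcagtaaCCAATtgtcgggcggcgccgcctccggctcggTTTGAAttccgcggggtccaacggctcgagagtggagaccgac
Ccnb2 promoter (GRCr8 chr8:79981634-79981908, minus strand): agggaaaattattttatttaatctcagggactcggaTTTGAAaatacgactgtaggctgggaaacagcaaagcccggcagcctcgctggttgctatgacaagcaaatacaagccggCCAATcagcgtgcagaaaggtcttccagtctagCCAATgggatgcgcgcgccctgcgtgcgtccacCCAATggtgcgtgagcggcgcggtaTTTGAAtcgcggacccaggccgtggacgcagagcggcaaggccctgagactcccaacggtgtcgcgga
Mcm3 promoter (GRCr8 chr9:30733722-30733996, minus strand): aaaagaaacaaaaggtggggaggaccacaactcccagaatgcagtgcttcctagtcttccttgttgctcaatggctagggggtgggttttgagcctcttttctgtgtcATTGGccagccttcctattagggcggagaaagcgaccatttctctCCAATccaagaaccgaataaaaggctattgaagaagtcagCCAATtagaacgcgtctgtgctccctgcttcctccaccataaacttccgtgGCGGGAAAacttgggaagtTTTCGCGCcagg
In Mki67 the homology regions begin 117 and 99 bases before the start, and the second shares 1 base with a CCAAT box on the opposite strand. Prc1, a mitotic microtubule bundler, holds 1 homology region 18 bases before the start, and CCAAT boxes 239 and 50 bases before the start. Ccnb2, a B-type cyclin, holds CCAAT boxes 134, 101 and 68 bases before the start and its nearer homology region 43 bases before. Mcm3, a subunit of the replicative helicase, holds E2F letters across the start and from base 14 after it, and no homology region.

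The searched letters were unevenly spread over the phases. Within 250 bases before to 50 after the start, on both strands, a cell cycle homology region was present in 11 of 14 promoters of G2 and mitosis genes (78.6%), in 3 of 8 of DNA synthesis genes (37.5%) and in 0 of 4 of G1 genes, against 19.7% of all 33469 promoters. E2F letters were present in 6 of 8 promoters of DNA synthesis genes (75%) and in 1 of 14 of G2 and mitosis genes, that of Cdk1, against 2.14% of all promoters. CCAAT boxes were present in 11 of 14 G2 and mitosis promoters and 6 of 8 DNA synthesis promoters, against 37.5% of all. They were present in 2 of 4 G1 promoters (50%) and 1 of 5 CDK inhibitor promoters (20%). The homology region was in 1 of 5 CDK inhibitor promoters (20%). E2F letters were in 0 of 4 G1 and 0 of 5 CDK inhibitor promoters. These counts take in Rrm1, Birc5 and Ccnd3, which had a promoter entry but no probe set. A match describes letters in a window and not an occupied site. No motif was tested against the strain differences.

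**Figure D1:**
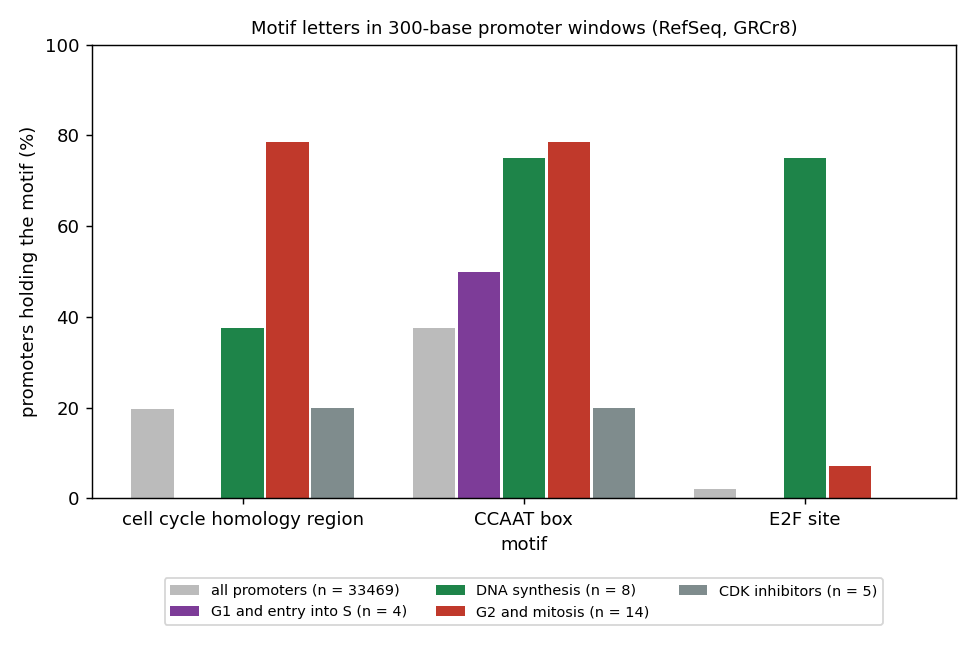
Share of promoters (y axis, percent) that hold each motif (x axis), for all 33469 RefSeq rat promoters in grey and for the members of each phase in colour. The homology region reaches 78.6% in G2 and mitosis genes, and E2F letters reach 75% in DNA synthesis genes against 2.14% of all promoters.

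Values are log2 levels per probe set as the authors deposited them after RMA, a method that corrects background, equalizes the distributions of the arrays and combines the probes of a set. Levels of different probe sets are not comparable, since probes differ in affinity. The 6 array medians lay between 2.29 and 2.52, and the values of WKY replicate 3 spread least (SD 2.12 against 2.22 to 2.27), with the lowest correlations with the other arrays (0.961 to 0.975). The smooth muscle markers Tagln and Myh11 lay between 10.65 and 11.61 on all 6 arrays of this labelled aorta. No detection call exists, so 230 probe sets of olfactory and vomeronasal receptors, a class of genes largely confined to sensory tissue, served as a yardstick of dim signal, chosen after the data were seen. Their median level was 0.79 and their 95th percentile was 2.04. Of the 39 members 11 had a mean level no higher than that percentile, among them Tpx2, Top2a, Cdk1, Ccnb1, Bub1 and Rrm2, and these are not shown to lie above background.

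**Figure D2:**
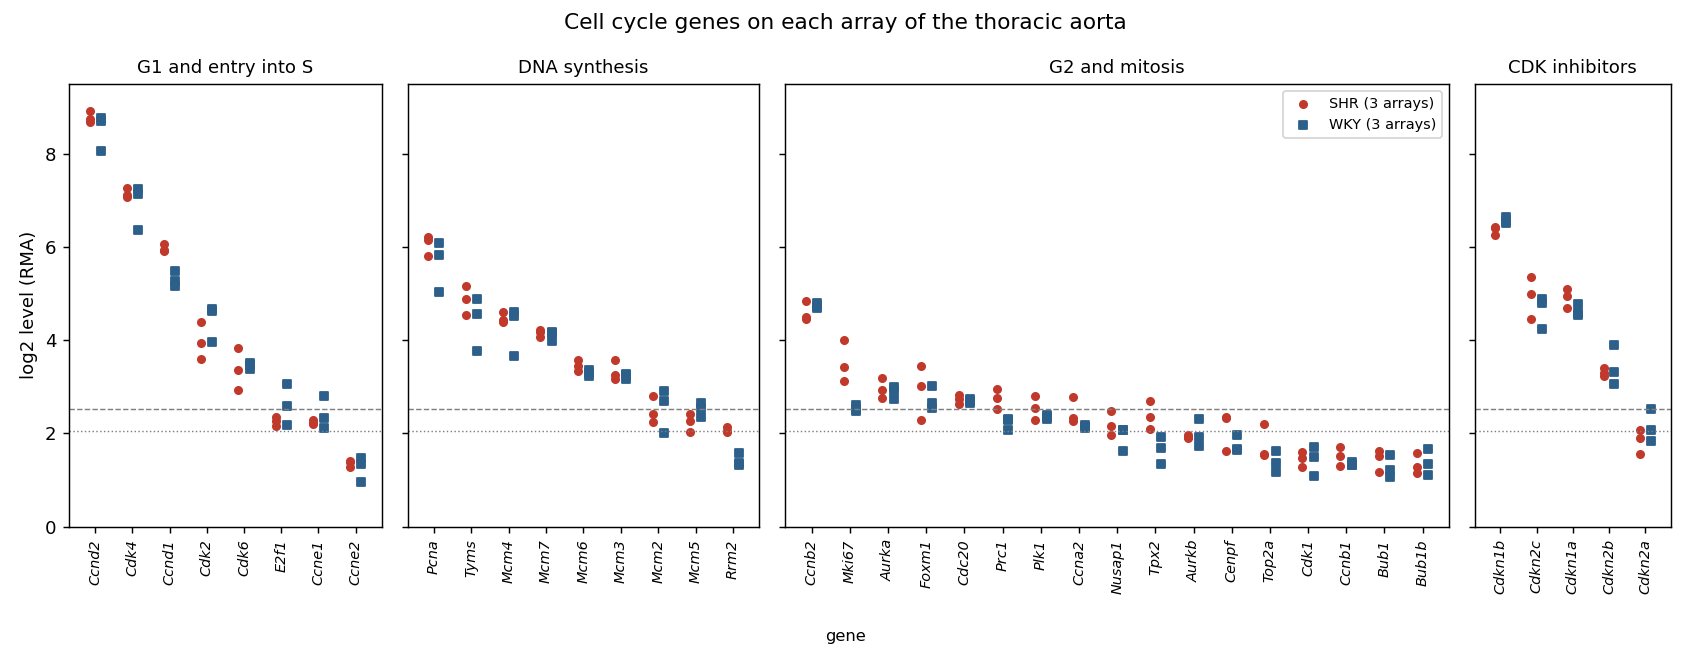
Level of each of the 39 measured members (x axis, by phase, sorted by mean level only for legibility) on each array as the log2 value after RMA (y axis), with SHR as red circles and WKY as blue squares. The dashed line is the highest array median (2.52) and the dotted line the 95th percentile of the receptor probe sets (2.04), and most G2 and mitosis genes lie near these lines.

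The comparison of SHR with WKY asked which RNAs of the aorta differ with the hypertensive strain. No cell cycle gene passed limma's test after Benjamini-Hochberg adjustment over the 21659 tested probe sets (0 of 39; 0.0693% of all tested probe sets passed), and the smallest adjusted p of a member was 0.417. At an unadjusted p under 0.05 there were 5 members with SHR higher (12.8%), Mki67, Tpx2, Prc1, Rrm2 and Ccnd1, against 3.01% of all tested probe sets, and 0 with SHR lower, against 2.54%. All 3 SHR arrays lay above all 3 WKY arrays for 6 members (15.4%), the same 5 and Ccna2, against 6.48% of all tested probe sets, and below them for 1, Cdkn1b, against 5.61%. The difference was above 0 for 27 of 39 members (69.2%) against 48% of all tested probe sets, and its median was 0.16 against -0.01. The members were chosen with earlier results of these data known and are not independent of each other, so these shares are descriptions. In whole tissue, fewer cells of a type and less RNA per cell cannot be told apart.

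The count at an unadjusted p under 0.05 stayed between 4 and 6 when each array was left out in turn, a check added after the data were seen. Mki67, Tpx2, Rrm2 and Ccnd1 were among them each time, and Prc1 was not without SHR replicate 3 or without WKY replicate 1. The background share ran from 1.91% to 3.42% in these fits. The counts of members apart moved more. Those with SHR higher were 6 of 39 with all arrays (15.4%), against 6.48% of all tested probe sets. They were 13 without SHR replicate 1 (11.6% of all tested probe sets) and 9 without SHR replicate 3 (10.4%). In the other 4 fits they were 6 to 8 (9.43% to 12.4%). Without WKY replicate 3 they were again 6 (15.4%), while the share of all tested probe sets was 12.4%, nearer to that of the members. Those with SHR lower, 1 with all arrays (against 5.61%), were 4 without SHR replicate 1 (10.8%) and 4 without WKY replicate 1 (10.7%). They were 2 without SHR replicate 3 (10.7%), 2 without WKY replicate 3 (11.5%) and 1 in the other 2 fits (10.4% and 10.6%). Fewer arrays are separated more easily, as the background shares show.

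**Figure D3:**
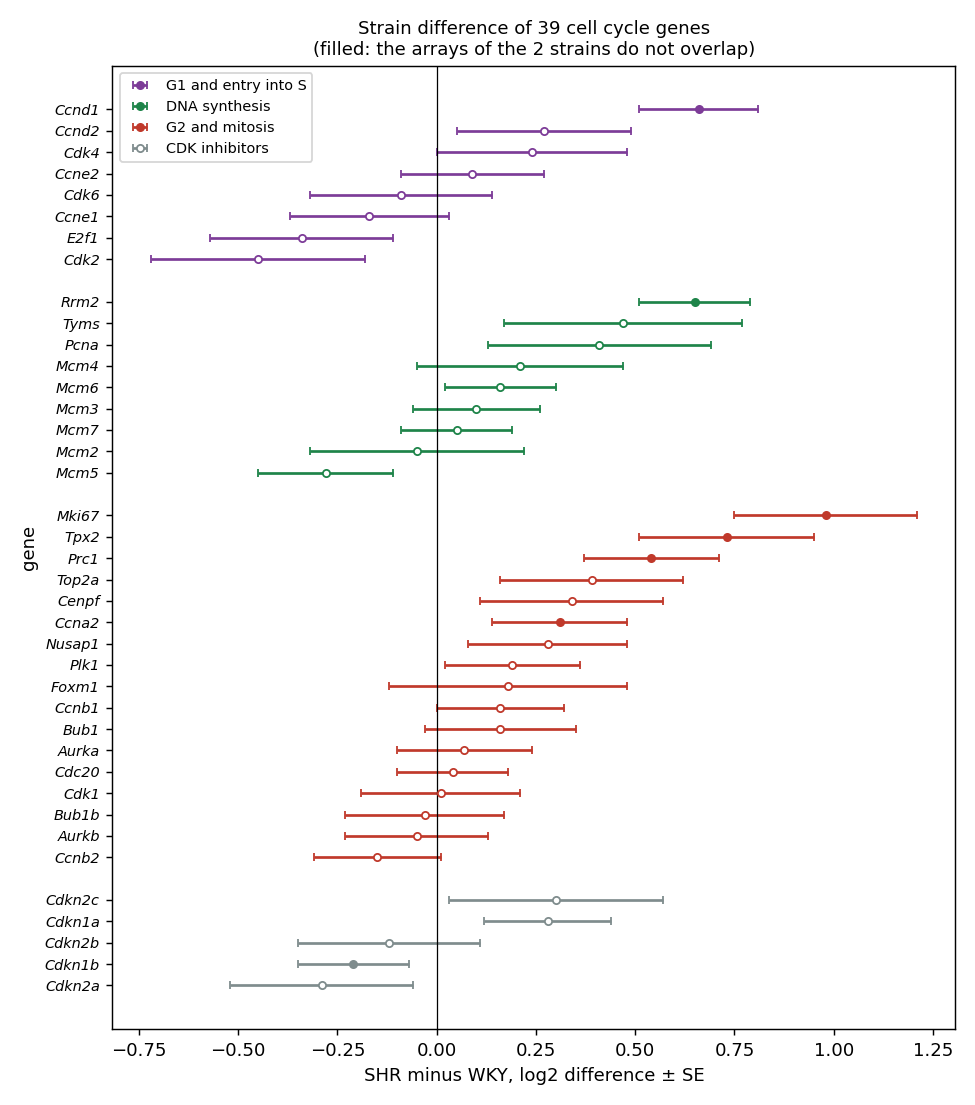
SHR minus WKY on the log2 scale with its standard error (x axis) for the 39 members (y axis), grouped by phase. Filled points are the 7 members whose strains do not overlap, 6 of them to the right of 0 (Mki67 farthest, at 0.98) and Cdkn1b to the left, at -0.21.

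Among the 17 measured genes of G2 and mitosis, 14 had a difference above 0 (82.4%, against 48% of all tested probe sets), with a median of 0.18, and 4 lay apart with SHR higher (23.5%, against 6.48%). Without SHR replicate 1 the median was 0.31 and 9 lay apart, against 11.6% of all tested probe sets. In the other 5 fits without 1 array the median was 0.13 to 0.19 and 4 or 5 lay apart. Of all tested probe sets 9.43% to 12.4% lay apart with SHR higher in those 5 fits. Mki67 (probe set 17637913), which coats mitotic chromosomes and is the standard proliferation marker, lay at 3.43, 3.13 and 4.0 on SHR replicates 1 to 3 and at 2.53, 2.60 and 2.47 on WKY replicates 1 to 3. Every SHR array was above every WKY array by at least 0.52, and SHR replicate 3 was the highest. The difference was 0.98 ± 0.23 (SE; limma adjusted p = 0.463). It ran from 0.74 to 1.18 over the 6 fits without 1 array. The WKY values lay close to the array medians, so the difference is between measured levels and is not an estimate of a fold in RNA.

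Tpx2 (probe set 17767437), which activates Aurora A and nucleates spindle microtubules, lay at 2.10, 2.34 and 2.70 in SHR and at 1.91, 1.69 and 1.35 in WKY. The strains were separated by 0.19, with SHR replicate 3 again the highest, and the difference was 0.73 ± 0.22 (SE; limma adjusted p = 0.656). Prc1 (probe set 17617801), which bundles the microtubules of the central spindle, lay at 2.76, 2.53 and 2.96 in SHR and at 2.06, 2.30 and 2.28 in WKY. The gap was 0.23 and the difference 0.54 ± 0.17 (SE; limma adjusted p = 0.715). Ccna2, the cyclin of S phase and early mitosis, lay at 2.33, 2.27 and 2.77 in SHR and at 2.11, 2.17 and 2.14 in WKY. Its strains were separated by only 0.10, and its difference of 0.31 was 0.16 without SHR replicate 3.

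Top2a, the topoisomerase that untangles replicated chromosomes, lay at 1.55, 1.54 and 2.21 in SHR and at 1.36, 1.61 and 1.17 in WKY. SHR replicate 3 stood alone above the rest, WKY replicate 2 exceeded the other SHR arrays, and the difference of 0.39 ± 0.23 (SE; limma adjusted p = 0.923) was 0.17 without SHR replicate 3. Cdk1, the kinase that starts mitosis, lay at 1.60, 1.28 and 1.47 in SHR and at 1.50, 1.09 and 1.71 in WKY, with complete overlap of the strains and a difference of 0.01 ± 0.20 (SE). The checkpoint kinases Bub1 and Bub1b differed by 0.16 and -0.03, and the Aurora kinases Aurka and Aurkb by 0.07 and -0.05. Cdc20, the activator of the anaphase-promoting complex, differed by 0.04, Plk1, a kinase of mitotic entry, by 0.19 and Foxm1, a transcription factor of the mitotic programme, by 0.18. Cenpf, a kinetochore protein, differed by 0.34, Nusap1, a spindle protein, by 0.28 and Ccnb1, the main mitotic cyclin, by 0.16. All of these overlapped between the strains, and none was below an unadjusted p of 0.05.

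The probe sets of Ccnb2 did not give the same picture. The brighter, 17853791, lay at 4.45, 4.49 and 4.84 in SHR and at 4.8, 4.68 and 4.73 in WKY, a difference of -0.15 ± 0.16 (SE; limma adjusted p = 0.928). The dimmer, 17627662, lay at 1.45, 1.67 and 1.85 and at 1.2, 1.39 and 1.43, a difference of 0.32 with the strains apart by only 0.02. On both probe sets SHR replicate 3 was the highest of the 6 arrays. The annotation does not say which transcript or copy of the gene either one reads.

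The 17 G2 and mitosis genes averaged 2.22, 2.33 and 2.60 over the SHR arrays and 2.10, 2.13 and 2.19 over the WKY arrays, each in the order of the replicate numbers, and SHR replicate 3 was the highest of the 6 arrays for 11 of the 17 genes (64.7%). Over all tested probe sets that share was 14.7%, and over those with a mean level under 4 it was 13.6%. SHR replicate 3 also had the lowest levels of several other cell types: white adipocyte markers (8 of 8 measured) averaged 4.12 to 7.72 over the SHR arrays and 6.09 to 7.56 over the WKY arrays, and were lowest there. Macrophage markers (7 of 7) averaged 6.11, 4.59 and 3.70 on the SHR arrays and 4.47 to 5.42 in WKY, and pan-leukocyte markers (4 of 4) 4.52, 3.62 and 2.86 and 3.35 to 3.87. Endothelial markers (5 of 7) averaged 6.53, 5.38 and 4.69 in SHR and 5.75 to 6.40 in WKY, whereas smooth muscle markers (5 of 7) stayed within 9.16 to 9.56. Their part in the level of the mitotic genes was not tested beyond 1 fit: with the mean level of the white adipocyte markers as a further term the median difference of the G2 and mitosis genes was 0.12.

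T and NK cell markers (6 of 6) averaged 1.27 to 1.51 and B cell markers (3 of 5) 1.70 to 2.10 over the 6 arrays, around or under the receptor yardstick of 2.04. Fibroblast markers (6 of 6) averaged 7.42 to 8.86 in SHR and 8.31 to 8.60 in WKY. Of these only Pi16 lay apart, with SHR lower (16.7%, against 5.61% of all tested probe sets). Its difference was -1.54, with a gap that rounds to 0.00. Skeletal and cardiac muscle markers (5 of 6) averaged 3.24, 3.33 and 3.36 in SHR and 4.06, 3.33 and 3.66 in WKY. All 5 had a difference below 0, and 3 of them, Acta1, Ckm and Tnnt3, lay apart with SHR lower (60%, against 5.61% of all tested probe sets). Erythroid markers (2 of 5) averaged 1.46 to 2.65 in SHR and 2.46 to 3.37 in WKY. The 2 genes differed unequally: Hba-a1 by -1.77 with overlapping strains, and Slc4a1 by -0.17 with the strains apart by only 0.02. The mean level of Slc4a1 lay under the yardstick. Brown adipocyte markers (5 of 5) averaged 3.35 to 4.82 and 4.27 to 5.79, and Schwann cell markers (2 of 4) 3.23 to 4.93 and 3.99 to 4.45. The brown adipocyte markers did not go 1 way. Dio2 lay apart with SHR higher (20% of the list, against 6.48% of all tested probe sets), at a difference of 0.73. The difference was below 0 for 4 of the 5, among them Ucp1 at -2.41 with overlapping strains. The part of these cell types in the cell cycle values was not tested.

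**Figure D4:**
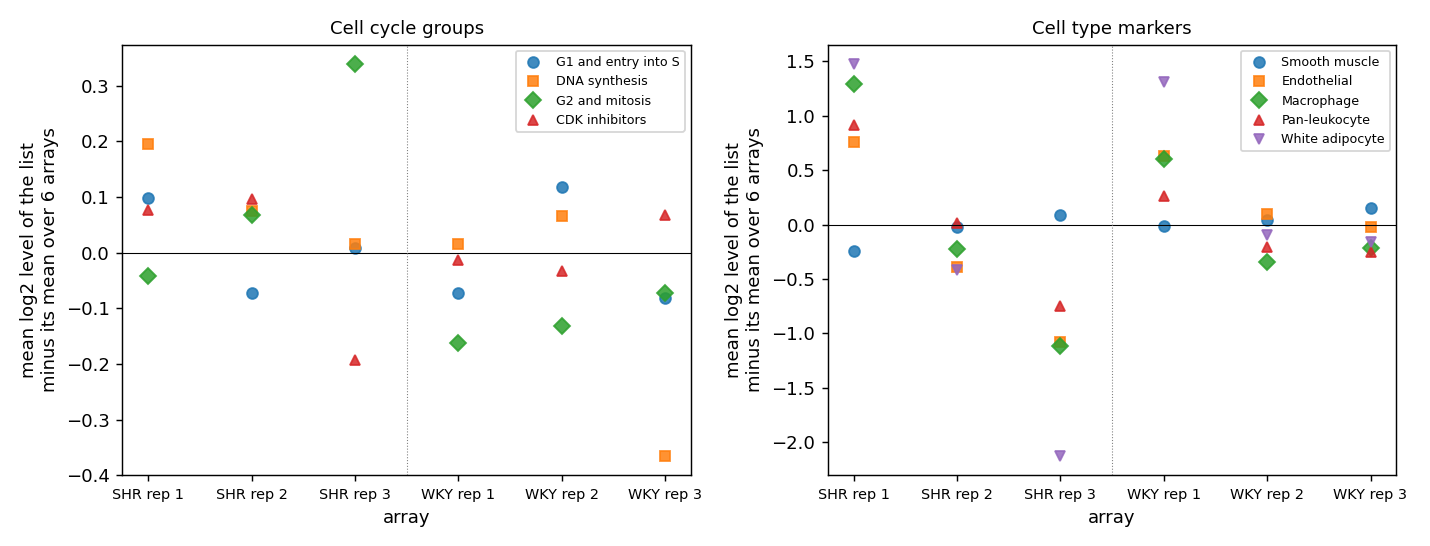
Mean log2 level of each list minus its own mean over the 6 arrays (y axis) for each array (x axis), for the cell cycle groups at left and for cell type markers at right, with different y scales. G2 and mitosis genes are highest on SHR replicate 3, where white adipocyte markers average 4.12, and DNA synthesis genes are lowest on WKY replicate 3, at a mean of 3.22.

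Of the 9 measured DNA synthesis genes, 7 had a difference above 0 (77.8%, against 48% of all tested probe sets), with a median of 0.16. Only Rrm2 had strains that did not overlap on its brighter probe set (11.1%, against 6.48% with SHR higher). Rrm2 (probe set 17815078), the small subunit of ribonucleotide reductase that makes deoxyribonucleotides, lay at 2.13, 2.05 and 2.03 in SHR and at 1.58, 1.33 and 1.37 in WKY. The strains were apart by 0.46, with little spread within either, and the difference was 0.65 ± 0.14 (SE; limma adjusted p = 0.417). The second probe set, 17732584, lay at 1.67, 1.73 and 2.23 and at 1.42, 1.63 and 1.39, apart by 0.04, with a difference of 0.40. Both probe sets have a mean level under the receptor yardstick, so a presence of the transcript above background is not shown.

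The helicase subunits Mcm2, Mcm4, Mcm5, Mcm6 and Mcm7, which unwind DNA at the replication fork, differed by -0.05, 0.21, -0.28, 0.16 and 0.05, each with overlapping strains. Mcm5, with the smallest p of these, lay at 2.42, 2.03 and 2.26 in SHR and at 2.36, 2.65 and 2.55 in WKY (limma adjusted p = 0.923), and its difference was -0.18 without SHR replicate 2. Mcm3 had 1 probe set with overlapping strains, 17880106, at 3.17, 3.58 and 3.25 in SHR and 3.17, 3.26 and 3.28 in WKY, and 1 without overlap, 17863340, at 3.07, 2.88 and 3.52 and at 2.45, 2.35 and 2.72. Their differences were 0.10 and 0.65 (limma adjusted p = 0.948 and 0.733), so the reading of Mcm3 depends on the probe set. The probe sets of Mcm4 gave 0.21 and 0.16.

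Pcna, the sliding clamp of the replicative polymerases, lay at 6.22, 6.15 and 5.80 in SHR and at 5.83, 6.08 and 5.04 in WKY. WKY replicate 3 alone lay well under the other arrays, and the difference of 0.41 ± 0.28 (SE; limma adjusted p = 0.923) was 0.10 without it and 0.62 without WKY replicate 2. Tyms, which makes thymidylate, lay at 5.16, 4.54 and 4.88 in SHR and at 4.55, 4.87 and 3.76 in WKY. Its difference of 0.47 was 0.15 without WKY replicate 3 and 0.71 without WKY replicate 2. WKY replicate 3, whose values spread least, was the lowest of the 6 arrays for 7 of the 12 members with a mean level of 4 or more (58.3%). It was the lowest for 49.5% of all tested probe sets at such levels. For members under 4 it was the lowest in 6 of 27 (22.2%), against 12.3%.

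The G1 genes were split, with 4 of the 8 measured above 0 (50%, against 48% of all tested probe sets) and 4 below. Their median difference was 0.00. Ccnd1 (probe set 17638903), the D-type cyclin that links growth signals to the cycle, lay at 6.06, 5.90 and 5.94 in SHR and at 5.17, 5.49 and 5.26 in WKY. The SHR values lay within a narrow range, 0.41 above the highest WKY array, and the difference was 0.66 ± 0.15 (SE; limma adjusted p = 0.436). It ran from 0.59 to 0.75 without 1 array. Ccnd1 was highest on SHR replicate 1, where Mki67, Tpx2 and Prc1 were highest on SHR replicate 3, and it lay above the array medians on all 6 arrays.

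The kinase partners of Ccnd1, Cdk4 and Cdk6, and the related cyclin Ccnd2 did not separate. Ccnd2, a second D-type cyclin, was at 8.78 ± 0.12 (SD, n = 3) in SHR and 8.51 ± 0.39 in WKY, Cdk4 at 7.16 ± 0.10 and 6.91 ± 0.47, and Cdk6 at 3.37 ± 0.45 and 3.45 ± 0.07. For Ccnd2 and Cdk4 the larger WKY spread came with values of 8.06 and 6.37 on WKY replicate 3. Cdk2, the kinase of S phase entry, lay at 4.39, 3.59 and 3.94 in SHR and at 4.63, 4.67 and 3.96 in WKY, a difference of -0.45 ± 0.27 (SE; limma adjusted p = 0.923) that was -0.25 without SHR replicate 2 and -0.68 without WKY replicate 3. E2f1, the transcription factor that turns on replication genes, lay at 2.16, 2.36 and 2.26 and at 2.17, 2.58 and 3.06. Its difference of -0.34 was -0.12 when WKY replicate 3 was left out and -0.56 when WKY replicate 1 was. The E-type cyclins Ccne1 and Ccne2 differed by -0.17 and 0.09.

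Among the CDK inhibitors 2 of 5 had a difference above 0 (40%, against 48% of all tested probe sets) and the median was -0.12. Cdkn1b (probe set 17787711), the inhibitor p27 that holds resting cells in G1, lay at 6.42, 6.41 and 6.25 in SHR and at 6.55, 6.65 and 6.51 in WKY. Every SHR array was under every WKY array, but by only 0.09, and the difference was -0.21 ± 0.14 (SE; limma adjusted p = 0.923). Cdkn1a, the p53 target p21, lay at 4.69, 5.09 and 4.95 in SHR and at 4.78, 4.59 and 4.53 in WKY. WKY replicate 1 exceeded SHR replicate 1, and the difference was 0.28 ± 0.16 (SE; limma adjusted p = 0.923). Cdkn2a, the senescence-linked INK4a/ARF gene, lay at 1.89, 2.08 and 1.56 and at 2.06, 1.83 and 2.52, and its difference of -0.29 was -0.10 without WKY replicate 3, -0.15 without SHR replicate 3 and -0.45 without WKY replicate 2. Its neighbour Cdkn2b, induced by TGF-beta, and Cdkn2c differed by -0.12 and 0.30, both with overlap.

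Wider lists of the same pathway were read from the same fit. Of 32 origin licensing and replication genes 30 were measured and 28 tested. None passed, 0 had an unadjusted limma p under 0.05, and the median difference was 0.01. The strains lay apart for 1 in each direction (3.33% of the 30 measured). Over all tested probe sets the shares were 6.48% with SHR higher and 5.61% with SHR lower. The 1 with SHR higher, Pole2, was too dim to be tested. Pola2, Rpa2 and Prim1, parts of the priming polymerase and the single-strand binding complex, differed by -0.35, 0.28 and 0.35.

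Of 52 spindle, kinetochore and cytokinesis genes 46 were measured and 38 tested. None passed and 0 had an unadjusted limma p under 0.05, while 35 of 46 had a difference above 0 (76.1%, against 48% of all tested probe sets), with a median of 0.11. The strains lay apart with SHR higher for 5 (10.9%, against 6.48%) and with SHR lower for 0 (against 5.61%). Of the 5, Ect2 and Ncapg were too dim to be tested, and Incenp, Smc2 and Mad2l1 were tested. All shares of this list are of the 46 measured genes, of which 38 were tested. They are therefore not on the same footing as the shares of tested probe sets. Incenp, the scaffold of the chromosomal passenger complex, lay at 2.42, 2.74 and 2.76 in SHR and at 2.21, 2.36 and 2.41 in WKY. The spindle protein Ckap2 and the kinetochore subunit Spc25 differed by 0.66 and 0.37, both with overlap. Only 12 of the 46 had a mean level above the receptor yardstick. SHR replicate 3 was the highest array for 16 of these 46 genes (34.8%), against 14.7% of all tested probe sets.

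Of 37 genes of the retinoblastoma, E2F, DREAM and checkpoint circuits 32 were measured, all of them tested. None passed, and 3 had an unadjusted limma p under 0.05, all with SHR higher (9.38%, against 3.01% of all tested probe sets). The strains lay apart with SHR higher for 5 (15.6%, against 6.48%) and with SHR lower for 3 (9.38%, against 5.61%). The 5 were Ccng1, Gadd45b, Cdkn3, Tfdp1 and Lin54, the last 2 at differences of 0.44 and 0.29. The 3 were Gadd45a, Wee1 and Mybl2, at differences of -0.20, -0.22 and -0.23. Tfdp1, Lin54 and these 3 were named after their values were seen. Ccng1, a p53-induced cyclin, lay at 7.94, 8.06 and 7.93 in SHR and at 7.60, 7.66 and 6.92 in WKY (limma adjusted p = 0.864). Gadd45b, a stress-induced growth arrest gene, lay at 5.18, 4.85 and 4.78 and at 4.55, 4.49 and 4.46, a difference of 0.44 ± 0.16 (SE; limma adjusted p = 0.852). Cdkn3, a phosphatase that acts on cyclin-dependent kinases, lay at 1.59, 1.87 and 2.54 and at 1.26, 1.38 and 1.44, with SHR replicate 3 the highest (limma adjusted p = 0.877). The mean levels of Cdkn3 (1.68) and Mybl2 (2.00) lay under the receptor yardstick of 2.04. The median difference of this list was 0.01, with 16 genes above 0 (50%, against 48% of all tested probe sets) and 16 below.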

How the data were processed

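Thoracic aorta RNA was measured on 3 SHR and 3 WKY arrays. The deposited table holds log2 values for 28879 probe sets. Per the submitters' processing notes, the authors used RMA and Affymetrix Expression Console (version 1.2.1). That the base is log2 follows from RMA and the range of values. The sources used here give neither the genome build nor the annotation version behind the probe sets. Strain and replicate number came from the sample titles. The platform annotation gave 18511 probe sets 1 gene symbol, and 18394 of them matched RefSeq (GRCr8) by Entrez identifier.

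Probe sets with a mean at or above the 25th percentile (1.17) were tested, 21659 in all, with limma 3.58.1 in R 4.3.3 (lmFit, eBayes; strain as the only term; two-sided; Benjamini-Hochberg adjustment over all; threshold 0.05). All 43 member probe sets were tested. A gene with several was represented by the brightest. The step was tested on simulated data. Depth does not apply to arrays, and their number limits the precision.

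The members and lists were chosen with earlier results of these data known. Values on each array are given for Mki67, Top2a, Pcna, Ccnd1, Cdk1 and Cdkn1a, for the 3 members of each phase with the smallest unadjusted p, and for members whose strains do not overlap, and other members are summarised. Of each wider list the 3 genes with the smallest p are named. Pole2, Smc2, Mad2l1, Ect2, Ncapg, Tfdp1, Lin54, Gadd45a, Wee1 and Mybl2 are named besides. These were picked for strains that did not overlap, after their values were seen. Probe set pairs of 1 gene were named after their values were seen. The alternatives were 2 other filters, array weights, a further quantile normalization, centring on array medians, eBayes with trend and robust estimation, the replicate number as a block, white adipocyte markers as a covariate, leaving out each array and averaging a gene's probe sets.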

Additional observations from a re-analysis of the deposited data

How the results depend on the processing

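No cell cycle gene passed under any of the 15 alternatives. The count of passing probe sets over the whole table, 15, was 2 to 5 in the fits on 5 arrays, and 65 with array weights, where the cause was not tested. The median difference of all members, 0.16, was 0.21 with median centring, 0.10 with array weights, 0.12 with the white adipocyte covariate and 0.12 to 0.18 without 1 array. That of G2 and mitosis genes was 0.13 to 0.31 without 1 array, and that of DNA synthesis genes 0.10 to 0.22. The median of the CDK inhibitors, -0.12, was 0.06 with array weights and ran from -0.22 to 0.10 without 1 array, and that of G1 genes, 0.00, ran from -0.06 to 0.11, so neither has a settled direction. Of 234 values of 16 genes under the alternatives, 232 kept direction and side of the threshold. This count says little about stability. The other filters, the trend and robust estimation and the replicate block cannot change a difference, and no member passed in any fit. Sizes moved for some genes: Pcna, at 0.41, was 0.10 without WKY replicate 3, and Tyms, at 0.47, was 0.09 with array weights. Ccnd1, at 0.66, ran from 0.59 to 0.75 without 1 array. Cdk1, at 0.01, turned to -0.06 without SHR replicate 1 and to -0.16 without WKY replicate 2, and reached 0.15 without WKY replicate 3.

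Whether the replicate numbers pair the arrays is not settled. Deviations from the strain means correlated at 0.354, -0.0786 and 0.228 for numbers 1 to 3. SHR replicates 1 and 3 correlated best with the WKY array of their own number, and SHR replicate 2 with WKY replicate 3 (0.166). With the replicate block 3 probe sets passed in place of 15, and 5 members were at an unadjusted p under 0.05, as without it. Signal over background limits the dim members, 11 of 39, whose differences are between measured levels and do not give a fold in RNA.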
